A study of Mus musculus with 8 samples.

Results

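The 10 genes Kdr, Flt1, Etv2, Tal1, Lmo2, Gata2, Runx1, Fli1, Cdh5 and Pecam1, which encode blood and endothelial progenitor receptors, transcription factors and surface proteins, were read by name from the gene expression table. All 10 were found among its 18094 genes. RNA-seq had been performed with WT and CTCF-K20R mouse embryonic stem cells (mESCs) on day 0 and with embryoid bodies (EBs) 4 days after differentiation, and each of these 4 groups had 2 libraries. WT cells were mESCs of the E14Tg2A line, grown with LIF and the 2i inhibitors on inactivated mouse embryo fibroblasts. CTCF-K20R cells were cells of this kind in which lysine 20 of CTCF, the insulator protein that holds chromatin loops, had been changed to arginine with CRISPR/Cas9 and a donor vector under drug selection. EBs, the aggregates in which mESCs start to differentiate, were grown from either genotype as hanging drops in serum without LIF. The number of CTCF-K20R clones behind the libraries is not given in the sources used here, so clone and genotype cannot be told apart.

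Blood and endothelium arise close together from mesoderm that carries Kdr, the main receptor of vascular endothelial growth factor (VEGF). In these Kdr-positive cells the ETS factor Etv2 acts for a short time upstream of Tal1, Lmo2, Gata2, Fli1 and Runx1, which then hold the blood and endothelial programmes in place. Cdh5 and Pecam1 are junction proteins of endothelial cells, and Pecam1 is also a surface protein of undifferentiated mESCs.

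The promoters of both VEGF receptors are shown because both genes were downregulated together on day 4, and those of Etv2 and Tal1 because Etv2 was downregulated and Tal1 was not called. RefSeq promoter windows on GRCm38.p6 were found for 6 of the 10 genes, as 9 windows in all. Each sequence below is the 250 bases upstream of the RefSeq start, read 5′ to 3′ on the strand of the gene: chr5:75978456-75978705 (minus strand) for Kdr, chr5:147726012-147726261 (minus) for Flt1, chr7:30635853-30636102 (minus) for Etv2 and chr4:115056176-115056425 (plus) for the more upstream of the windows of Tal1. Capitals mark a match, on either strand, to the letters GGAAGT of ETS factor sites in Kdr and Flt1. In Tal1 they mark a match to AGATAA, known from sites of zinc finger factors such as Gata2.
Kdr: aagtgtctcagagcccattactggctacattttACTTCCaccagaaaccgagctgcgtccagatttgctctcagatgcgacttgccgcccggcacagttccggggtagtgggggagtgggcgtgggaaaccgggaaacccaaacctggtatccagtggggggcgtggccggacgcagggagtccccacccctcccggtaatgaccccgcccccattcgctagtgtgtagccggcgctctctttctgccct
Flt1: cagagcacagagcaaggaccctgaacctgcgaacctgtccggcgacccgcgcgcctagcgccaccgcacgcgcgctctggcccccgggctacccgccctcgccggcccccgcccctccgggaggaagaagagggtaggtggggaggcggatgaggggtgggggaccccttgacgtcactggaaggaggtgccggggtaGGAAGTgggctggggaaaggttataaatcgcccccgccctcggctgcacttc
Etv2: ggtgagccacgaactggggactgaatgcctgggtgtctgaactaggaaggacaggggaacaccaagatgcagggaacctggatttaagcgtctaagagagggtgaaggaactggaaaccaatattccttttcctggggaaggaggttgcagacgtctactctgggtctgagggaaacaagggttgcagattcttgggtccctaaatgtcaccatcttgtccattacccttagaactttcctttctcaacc
Tal1: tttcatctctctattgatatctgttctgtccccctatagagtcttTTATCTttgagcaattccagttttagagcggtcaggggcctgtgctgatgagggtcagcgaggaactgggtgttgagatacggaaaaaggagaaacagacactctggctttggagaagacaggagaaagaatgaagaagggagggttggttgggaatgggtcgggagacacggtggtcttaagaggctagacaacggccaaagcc
Each VEGF receptor window held 1 match to GGAAGT, at base 34 for Kdr and base 199 for Flt1, counted from the first base shown. The same letters occurred in 23.8% of 32851 RefSeq windows of 300 bases, which run from 250 bases before the start to 50 after it. The Tal1 window held 1 match to AGATAA at base 46, against 11.2% of all windows, and no match to either was found in that of Etv2. The E-box CANNTG, present in 72.3% of all windows, was found in 4 of the 9 windows and is not capitalized. TGTGGT (Runx factors, 16.8% of all windows) was found in 1 window, of Runx1, and AGGNGGC (the core of the CTCF motif, 29.4%) in 2, both of Gata2. The matches did not overlap within the sequences shown. They describe letters only.

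Library totals were 19412659 to 21311513 normalized counts, the unit of every level below unless a level per kb is named. A limit of detection of 3 reads corresponded to between 2.43 and 3.43 normalized counts. The 2 WT libraries of each day differed by less than the sampling noise (mean scaled squared difference 0.314 in mESCs and 0.278 in EBs, where independent reads give about 1) and were counted as 1 sample. The CTCF-K20R pairs differed by more than that noise, at 4.00 and 4.36. The study describes its replicates as independent, while nothing in the labels ties libraries to separate cultures, and p-values measure only the spread between these samples. Ctcf itself, at 3938 to 4256 in WT and 4408 to 4926 in CTCF-K20R libraries, differed by a log2 fold change of 0.19 on each day. A gene was called a DEG, up- or downregulated, where the absolute log2 fold change was above 1 and the adjusted p of limma was under 0.05 over the 15767 genes that averaged 10 or more across the 8 libraries.

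**Figure D1:**
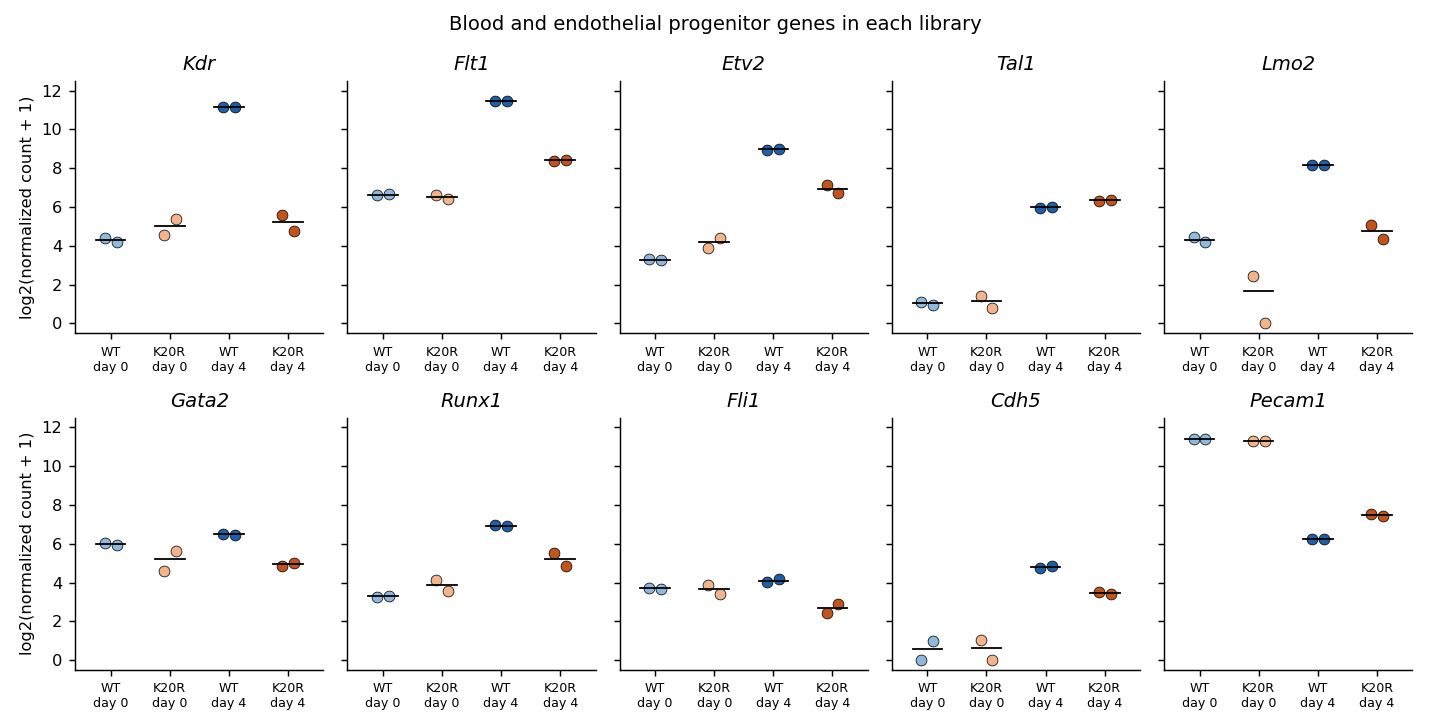
Level of each of the 10 genes in each library, as log2(normalized count + 1), by genotype and day. Points are libraries and bars are the means of each pair, K20R stands for CTCF-K20R, and the same axis is used in all panels. On day 4 both CTCF-K20R points lie below both WT points for Kdr, Flt1, Etv2, Lmo2, Gata2, Runx1, Fli1 and Cdh5. For Tal1 and Pecam1 both lie above. Among all genes tested, 41.7% lay below and 43.3% lay above in this way, regardless of any test.

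On day 4 after differentiation, 5 of the 9 genes tested were downregulated in CTCF-K20R EBs, namely Kdr, Flt1, Etv2, Lmo2 and Runx1, and Pecam1 was upregulated. The background was 8.65% of all genes tested downregulated and 6.89% upregulated. Gata2, Fli1 and Tal1 were not called, and Cdh5 had a mean of 9.47, under the filter. The median of the 9 genes tested was -1.77 on the log2 scale, against 0.01 over all genes tested. A gene could pass the filter through the group in which it was high, so these counts describe the 9 genes and support nothing further. In bulk libraries, fewer cells of a type and less RNA per cell cannot be told apart.

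Kdr, which binds VEGF-A and marks the mesoderm that gives rise to blood and vessels, was the most strongly downregulated of the 10 genes (chromosome 5, 75932827 to 75978458, minus strand, GRCm38). Its levels in the WT EB libraries were 2312 and 2293. Its levels in the CTCF-K20R EB libraries were 46.5 and 26.1 (36.3 ± 14.4, SD, n = 2). Both mutant libraries lay 63.5-fold below WT on average, and close to the levels of undifferentiated cells, which were 19.9 and 17.6 in WT mESCs and 22.4 and 41.2 in CTCF-K20R mESCs. The day 4 log2 fold change was -6.01 (SE 0.507, adjusted p = 0.00065, limma with Benjamini-Hochberg adjustment). On day 0 the log2 fold change of 0.67 was not called (adjusted p = 0.423, limma).

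Flt1, the VEGF receptor that binds the ligand tightly and signals weakly, was downregulated as well (chromosome 5, 147561604 to 147726011, minus strand). It was at 2789 and 2809 in WT EBs. It was at 336 and 348 in CTCF-K20R EBs (342 ± 8.45, SD, n = 2), which is 8.18-fold lower. In contrast to Kdr, its levels in mutant EBs remained above those of mESCs of either genotype, which ranged from 84.0 to 100.5. The log2 fold change was -3.03 on day 4 (SE 0.159, adjusted p = 0.000152, limma) and -0.12 on day 0 (adjusted p = 0.666, limma).

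Etv2, the ETS factor that starts the blood and endothelial programme, reached 499.8 and 506 in WT EBs (chromosome 7, 30633616 to 30635852, minus strand). It reached 139 and 105 in CTCF-K20R EBs (122 ± 24.6, SD, n = 2), 4.12-fold lower. The log2 fold change of -2.05 passed both thresholds (SE 0.363, adjusted p = 0.00821, limma). This call rested on both CTCF-K20R EB libraries, since the adjusted p of limma became 0.0585 without the first and 0.0763 without the second. In mESCs Etv2 was low, at 9.06 and 8.51 in WT and 14.0 and 20.0 in CTCF-K20R libraries, and the day 0 difference of 0.86 was not called (adjusted p = 0.176, limma).

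Tal1, the basic helix-loop-helix factor that blood formation depends on, behaved otherwise than Etv2 (chromosome 4, 115056426 to 115071755, plus strand). Its levels were 61.9 and 62.8 in WT EBs and 78.4 and 81.9 in CTCF-K20R EBs (80.1 ± 2.47, SD, n = 2). The log2 fold change of 0.36 (SE 0.497) was not called (adjusted p = 0.606, limma). In mESCs Tal1 was at or under the limit of detection in all 4 libraries, at 0.749 to 1.68. No day 0 ratio is therefore given, and log2 differences that use these values rest on undetected levels.

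Lmo2, the LIM-only protein that bridges Tal1 and GATA factors, had levels of 282 and 284 in WT EBs (chromosome 2, 103957986 to 103981878, plus strand). The CTCF-K20R EB libraries held 32.5 and 19.4 (25.98 ± 9.24, SD, n = 2), 10.9-fold lower. The day 4 log2 fold change of -3.44 was called with a large error (SE 1.02, adjusted p = 0.0436, limma). Lmo2 had the largest log2 difference of the 9 genes tested in mESCs, with 20.6 and 17.2 in WT against 4.35 and 0 in CTCF-K20R libraries. The day 0 log2 fold change of -3.11 was not called (SE 1.02, adjusted p = 0.102, limma), and 1 mutant library was at 0 while the other stood just above the limit. At day 4 it was no longer called when a pseudocount of 0.1 was used (adjusted p = 0.263, limma), without a filter on low values (0.103), and without the first (0.175) or second (0.235) CTCF-K20R EB library.

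Gata2, a zinc finger factor of blood stem and progenitor cells, had levels of 90.6 and 86.3 in WT EBs and 27.8 and 31.4 in CTCF-K20R EBs (chromosome 6, 88193891 to 88207032, plus strand). The log2 fold change of -1.55 (SE 0.498) missed the threshold of adjusted p (adjusted p = 0.0558, limma). It passed it when each of the 8 libraries was its own sample (adjusted p = 0.00436, limma). Gata2 was already present in mESCs, at 64.6 and 60.5 in WT and 22.8 and 48.5 in CTCF-K20R libraries, where its log2 fold change was -0.89 (adjusted p = 0.289, limma).

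Runx1, the factor with which definitive blood cells emerge from endothelium, was at 122 and 121 in WT EBs (chromosome 16, 92601466 to 92826149, minus strand). It was at 44.3 and 27.7 in CTCF-K20R EBs (36.0 ± 11.7, SD, n = 2), 3.38-fold lower. The log2 fold change of -1.77 was called (SE 0.483, adjusted p = 0.0342, limma). The call was lost without the first (adjusted p = 0.0763, limma) or the second (0.133) CTCF-K20R EB library and without a filter on low values (0.067). In mESCs the levels were 8.62 and 8.92 in WT and 16.7 and 10.8 in CTCF-K20R libraries, with a log2 fold change of 0.56 (adjusted p = 0.479, limma). Its exons overlap those of Gm26626 on the other strand, and the use of strand in the counting is not stated, so reads of this pair cannot be told apart.

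Fli1, an ETS factor of blood and endothelial cells, was low in every library (chromosome 9, 32422204 to 32542861, minus strand). Its levels were 15.0 and 16.9 in WT EBs and 4.32 and 6.31 in CTCF-K20R EBs, the latter little above the limit of detection. The log2 fold change of -1.45 (SE 0.523) was not called (adjusted p = 0.0777, limma). When each of the 8 libraries was its own sample, it was called (adjusted p = 0.00294, limma), and then 7 of the 9 genes were downregulated, beside 11.3% of all genes tested. Levels in mESCs were between 9.57 and 13.6 in both genotypes.

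Cdh5, the cadherin of endothelial junctions, had the lowest mean of the 10 genes in normalized counts (chromosome 8, 104101625 to 104144511, plus strand). Its levels were 26.03 and 27.7 in WT EBs and 10.3 and 9.79 in CTCF-K20R EBs (10.03 ± 0.331, SD, n = 2). All mESC libraries were at or under the limit of detection, and 1 of each genotype was at 0. In a fit without a filter on low values, the day 4 log2 fold change was -1.34 (SE 0.550) and was not called (adjusted p = 0.149, limma), while 7.92% of genes were downregulated in that fit.

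Pecam1, the adhesion molecule also called CD31, ran the other way (chromosome 11, 106654217 to 106750628, minus strand). It was at 2682 and 2663 in WT mESCs and at 2514 and 2521 in CTCF-K20R mESCs. On day 4 it was at 74.7 and 75.4 in WT EBs and at 183 and 172 in CTCF-K20R EBs (178 ± 8.03, SD, n = 2), 2.37-fold higher. The levels in both genotypes were thus far below those of mESCs, and less so in the mutant. The log2 fold change was 1.23 on day 4 (SE 0.0929, adjusted p = 0.000457, limma) and -0.09 on day 0 (adjusted p = 0.579, limma).

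Regardless of any test, 8 of the 10 genes lay lower in both CTCF-K20R EB libraries than in both WT EB libraries, and Tal1 and Pecam1 lay higher in both. Among all genes tested, 41.7% lay lower and 43.3% lay higher in this way.

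On day 0 none of the 9 genes was called by limma, while 1, Lmo2, had an unadjusted p under 0.05. The background was 2.6% of genes downregulated and 1.19% upregulated. The median of the 9 genes was -0.06 on the log2 scale, against -0.01 over all genes tested. When each of the 8 libraries was its own sample, Lmo2 was called on day 0 (adjusted p = 0.0111, limma), where the background of downregulated genes was 5.73%.

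**Figure D2:**
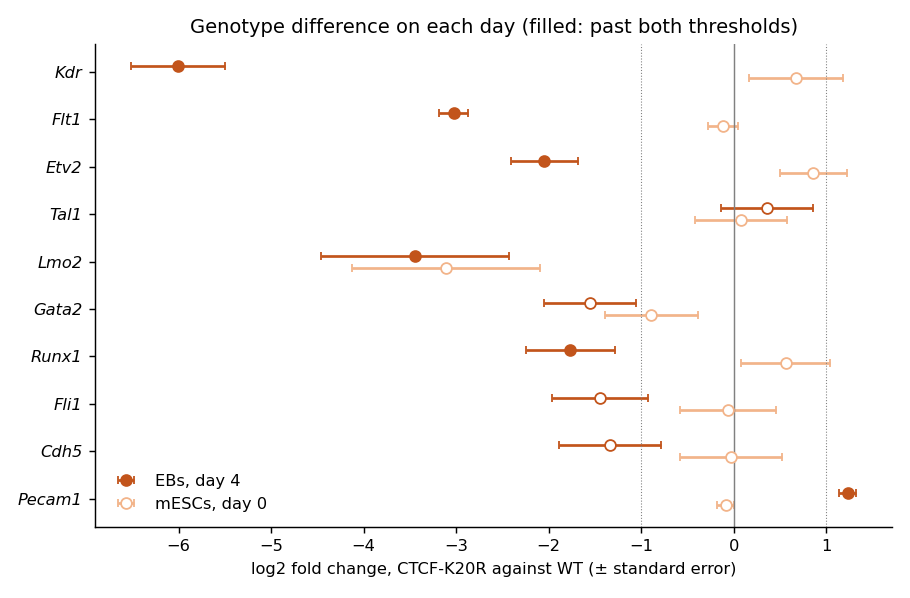
Log2 fold change of CTCF-K20R against WT on day 4 (dark points) and day 0 (light points) for each of the 10 genes, with standard errors from limma. Filled points passed both thresholds, dotted lines mark a log2 fold change of 1 in either direction, and the largest day 4 difference is that of Kdr at -6.01. Cdh5 comes from the fit without a filter on low values.

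Whether the genotype difference itself changed between the days was tested as an interaction, which uses all libraries and so shares them with both genotype comparisons. The difference was more negative on day 4 than on day 0 for Kdr by -6.68 (SE 0.717, adjusted p = 0.0027, limma). For Flt1 it was more negative by -2.91 (SE 0.225, adjusted p = 0.00104, limma), and for Etv2 by -2.91 (SE 0.514, adjusted p = 0.013, limma). For Pecam1 it was more positive by 1.32 (SE 0.131, adjusted p = 0.00214, limma). These were 3 lower and 1 higher calls among the 9 genes, beside a background of 6.04% and 6.84%. With each of the 8 libraries as its own sample there were 5 lower calls, beside 10.3%. Without the second CTCF-K20R EB library Kdr (adjusted p = 0.0527, limma) and Etv2 (0.0878) were not called, and without the first Etv2 was not (0.0749). The remaining genes were not called, with Runx1 at -2.33 (adjusted p = 0.0574), Fli1 at -1.38 (0.225), Gata2 at -0.66 (0.529), Lmo2 at -0.33 (0.887) and Tal1 at 0.27 (0.805), the last resting on day 0 values at or under the limit. The interaction of Lmo2 depended on the pseudocount, being 1.35 and not called with 0.1 (adjusted p = 0.780, limma) and -1.78 and called with 10 (adjusted p = 0.0454, limma).

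Differentiation of WT mESCs into EBs set 1 sample against 1, so its values have no replicate check and no test. On the log2 scale Kdr was 6.87 higher on day 4 than on day 0, a ratio of 123. Etv2 was 5.69 higher and Flt1 4.81 higher, ratios of 57.2 and 28.4. Lmo2 and Runx1 were 3.84 and 3.65 higher, ratios of 15.0 and 13.9. Tal1 was at least 18.3-fold higher and Cdh5 at least 7.90-fold higher, since both were at or under the limit in mESCs. Gata2 and Fli1 moved little, by 0.49 and 0.39. Pecam1 was 35.6-fold lower. Past 1 on the log2 scale were 6 of the 9 genes upward and 1 downward, beside 18.9% and 16.3% of all genes tested.

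The same change in CTCF-K20R cells has 2 libraries on each day, and it shares its EB libraries with the day 4 genotype comparison. Kdr did not pass the test, with a log2 change of 0.19 (SE 0.414, adjusted p = 0.721, limma). Tal1 rose by 5.23 (SE 0.406, adjusted p = 0.000209, limma), at least 24.2-fold. Etv2 rose by 2.78 (SE 0.297, adjusted p = 0.000686, limma), 7.17-fold, and Flt1 rose by 1.90 (SE 0.13, adjusted p = 0.000131, limma), 3.75-fold. Etv2, Flt1 and Tal1 thus rose in mutant EBs, and a rise of Kdr did not pass the test. Lmo2 rose by 3.50 (SE 0.83, adjusted p = 0.0145, limma) from a group in which 1 library was at 0. Runx1 rose by 1.32 (SE 0.394, adjusted p = 0.0323, limma). Without the first or the second CTCF-K20R EB library the adjusted p of Lmo2 became 0.155 or 0.111 and that of Runx1 0.153 or 0.0642, and without the second CTCF-K20R mESC library that of Runx1 became 0.131. Pecam1 fell by 3.82 on the log2 scale (SE 0.0758, adjusted p = 3.51e-06, limma), 14.2-fold. In all 5 of the 9 genes rose and 1 fell, beside a background of 14.5% and 11.6%. Gata2 changed by -0.17 and Fli1 by -0.99, neither past the test (adjusted p = 0.746 and 0.0965). Cdh5 rose by 2.94 without a filter on low values (adjusted p = 0.0109, limma), where 13.6% of genes were called upward, and was at least 3.03-fold higher.

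**Figure D3:**
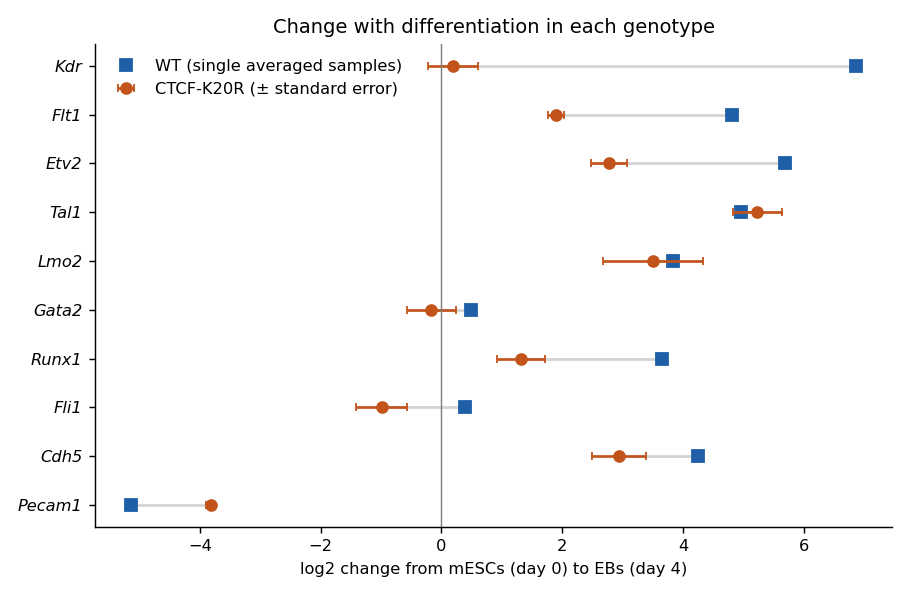
Log2 change from mESCs on day 0 to EBs on day 4 in WT (squares, 1 averaged sample per day, no error) and CTCF-K20R cells (circles, with standard errors from limma) for the 10 genes. Grey lines join the genotypes, and the widest gap is that of Kdr, at 6.87 in WT and 0.19 in CTCF-K20R.

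Levels were compared between genes only per kb of transcript, as normalized counts divided by the median transcript length of each gene in GENCODE vM21. In WT EBs the order was Etv2 (479.9 per kb), Flt1 (425), Kdr (389), Lmo2 (198), Runx1 (61.3), Gata2 (28.2), Pecam1 (24.1), Tal1 (18.9), Cdh5 (12.4) and Fli1 (7.62). In CTCF-K20R EBs Etv2 still stood first at 116 per kb, and Pecam1 followed at 57.0 and Flt1 at 51.9. Below them came Tal1 at 24.3, Runx1 and Lmo2 at 18.1 each, Gata2 at 9.44, Kdr at 6.12, Cdh5 at 4.62 and Fli1 at 2.54 per kb. The libraries of Runx1 overlapped with those of Lmo2 in this order, as did those of Kdr with those of Cdh5, so the order within these pairs is not resolved. Kdr went from the third place of 10 in WT EBs to the eighth in CTCF-K20R EBs, and Tal1 from the eighth to the fourth. In mESCs Pecam1 led by far, at 857 per kb in WT and 807 in CTCF-K20R cells, and no other of these genes was above 20 per kb in either genotype.

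For each of the 9 genes, the genes with the most similar profile were sought among 12377 others with a mean of at least 50. Similarity was the distance between log2 profiles centred over the 6 samples of the fit, with Pearson r as a description. The nearest to Kdr were Zfp703 (distance 1.19, r = 0.979) and Cdh11 (1.27, r = 0.983), with day 4 log2 fold changes of -6.02 and -6.44. The nearest to Flt1 were Dll3, a Notch ligand of the presomitic mesoderm (0.496, r = 0.993), and Krt8, a keratin of simple epithelia (0.629, r = 0.992). The nearest to Etv2 were Cobll1 (0.638) and Apln, the ligand of the apelin receptor (0.643). Those of Tal1 were Moxd1 (0.603) and Tubb4a (0.634), those of Runx1 were Tes (0.618) and Epb4.1l3 (0.638), and those of Pecam1 were Fbxo15 (0.406) and Itgal (0.488). Gata2 stood nearest to Rcan2 (0.419) and Susd5 (0.489), and Fli1 to Ptprk (0.386) and Ebp (0.452). Lmo2 had the most distant neighbours of the 9 genes, Reln (1.80) and Phlda2 (1.84). All these profiles rest on the same 6 samples in 4 groups.

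The genomic surroundings were read from the other genes tested within 5 Mb of each gene. Around Cdh5 the median log2 fold change of 92 neighbours was 0.55 on day 4 and 0.55 on day 0, with 74 and 82 of them higher in CTCF-K20R. Cdh5 itself had a value of -1.34 on day 4, opposite in sign to its neighbours. Around the other 9 genes the medians were between -0.17, around Lmo2, and 0.07, around Etv2, on day 4. The 37 neighbours of Kdr had a median of -0.15 on day 4, against -6.01 for Kdr. These medians do not show how single neighbours moved, and a neighbour can have changed as strongly as the gene itself.

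Other genes of these pathways were read from lists, and over all 7 of them 79 of 97 genes were tested. On day 4, 24 were downregulated, 9 of them in the early mesoderm list, 6 were upregulated and 49 were not called, with a median of -0.60, beside a background of 8.65% and 6.89%. On day 0, 7 were downregulated and 2 upregulated, beside 2.6% and 1.19%. Genes of these lists that are named below outside the 2 largest per list were chosen after their values were seen.

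Of 8 ligands and other receptors of the VEGF system tested, the co-receptors Nrp1 and Nrp2 were downregulated on day 4, Figf (VEGF-D) was upregulated by 1.13 (adjusted p = 0.0263, limma) and 5 were not called. Nrp1 went from 1084 and 1091 in WT EBs to 7.91 and 5.47 in the mutant (log2 fold change -7.16, adjusted p = 0.000242, limma). Nrp2 went from 2517 and 2490 to 72.8 and 68.1 (log2 fold change -5.13, adjusted p = 1.67e-05, limma). The main ligand Vegfa, at 1107 and 1101 in WT and 971 and 975 in CTCF-K20R EBs, had a log2 fold change of -0.18 and was not called (adjusted p = 0.0532, limma). The lymphatic receptor Flt4 was not called either, at -0.15 (adjusted p = 0.696, limma). On day 0 Nrp2 was upregulated by 1.11 (adjusted p = 0.004, limma), so its difference had the opposite sign on the 2 days, with an interaction of -6.24 (adjusted p = 7.39e-05, limma).

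Among 25 endothelial regulators and surface products tested, 6 were downregulated, 2 upregulated and 17 not called on day 4, with a median of -0.56. Aplnr, the apelin receptor of early mesoderm and vessels, was listed at 0 in all mESC libraries, was at 7254 and 7208 in WT EBs and was at 11.4 and 8.75 in CTCF-K20R EBs (log2 fold change -9.36, adjusted p = 0.000152, limma). Sox17, a factor of endoderm and arterial endothelium, had a log2 fold change of -7.30 (adjusted p = 0.000523, limma). The receptor Tek (1.73) and the vesicle protein Plvap (1.60) were upregulated against WT (adjusted p = 0.0102 and 0.029, limma). From day 0 to day 4 in CTCF-K20R cells, Tek changed by -0.29 and was not called, and Plvap changed by 2.26 (adjusted p = 0.00254, limma). The other genes downregulated against WT on day 4 were Foxc2 (-6.44), Foxc1 (-4.63), Cd93 (-4.13) and Elk3 (-1.73), with adjusted p of 0.00211, 0.0012, 0.00547 and 0.00301 (limma). The 17 genes not called ran from Esam at -1.36 to Cldn5 at 1.66. The endothelial sialomucin Emcn was listed at 0 in all 8 libraries. On day 0, Mef2c (-2.37, adjusted p = 0.0389, limma) and Acvrl1 (-2.07, adjusted p = 0.0405, limma) were downregulated. Mef2c was little above the limit of detection in WT mESCs, at 4.18 and 4.16, and at 0 in both CTCF-K20R mESC libraries. The size of its difference is therefore uncertain. Acvrl1 was at 269 and 238 in WT and 69.6 and 51.0 in CTCF-K20R mESCs.

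Of 12 blood transcription factors tested, 3 were downregulated, 1 upregulated and 8 not called, with a median of -0.66. Hhex, a homeobox factor of blood, endothelium and endoderm, was at 640.2 and 629 in WT and 83.2 and 62.9 in CTCF-K20R EBs (log2 fold change -3.12, adjusted p = 0.000408, limma). Myb, a factor of definitive blood progenitors that other proliferating cells also express, was at 133 and 136 in WT and 1195 and 1267 in CTCF-K20R EBs (3.18, adjusted p = 4.31e-05, limma). The other downregulated factors were Ikzf1 (-3.05, adjusted p = 0.011) and Zfpm1, the cofactor of GATA proteins (-2.78, adjusted p = 0.0104). Ikzf1 was also downregulated on day 0 (-3.45, adjusted p = 0.019, limma), and its interaction of 0.41 was not called. Cbfa2t3 was downregulated on day 0 as well (-2.83, adjusted p = 0.0297, limma). Both were under the limit of detection in CTCF-K20R mESCs. Among 7 blood surface and leukocyte products tested on day 4, Kit (-2.34) and Cd44 (-1.18) were downregulated (adjusted p = 0.000512 and 0.0459, limma). Itgam (2.82) and Coro1a (1.17) were upregulated (adjusted p = 0.00537 and 0.00544, limma). Kit was at 2855 and 3128 in WT and at 4221 and 3939 in CTCF-K20R mESCs. These levels were above the 1687 and 1702 of WT EBs and the 284 and 390 of CTCF-K20R EBs. Itgam was under the limit of detection in WT EBs, at 1.85 and 2.34, so the size of its difference is uncertain. It was at 18.1 and 24.1 in CTCF-K20R EBs, and in mESCs at 56.2 and 59.0 in WT and 16.3 and 13.7 in CTCF-K20R libraries. On day 0 it was downregulated (-1.88, adjusted p = 0.045, limma). Of 6 globins and erythroid products tested on day 4, Epor was downregulated (-1.42, adjusted p = 0.0082, limma) and 5 were not called.

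The embryonic globins had too few counts for the filter and were named after their values were seen. Hbb-bh1, the beta-like globin of primitive red cells, was listed at 0 in both WT EB libraries and in all mESC libraries, and was at 25.2 and 21.7 in CTCF-K20R EBs. Hba-x, its alpha-like counterpart, was listed at 0 in the same 6 libraries and was at 7.98 and 3.23 in CTCF-K20R EBs. Hbb-y was at 4.58 and 3.25 there and at 0 elsewhere. In a fit without a filter on low values, Hbb-bh1 (adjusted p = 0.00291, limma), Hbb-y (0.012) and Hba-x (0.0339) were called higher in CTCF-K20R EBs, beside 5.8% of 18034 genes called in this direction. Their levels lay at or a little above the limit of detection of up to 3.43, except those of Hbb-bh1 and of Hba-x in 1 library. In the same fit the adult globins were not called, with Hbb-bt at -2.69, Hbb-bs at -1.24, Hba-a2 at -0.14 and Hba-a1 at -0.0002, and Epor was called lower (-1.42, adjusted p = 0.0192, limma), beside 7.92% of genes. Near-identical copies of these genes can share reads.

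Of 11 partners that form complexes with Tal1, Lmo2 and Runx1, 1 was downregulated on day 4, the Lmo2 relative Lmo1 (-2.93, adjusted p = 0.00873, limma), and the median was -0.43. Ldb1, the protein that joins Lmo2 complexes, had a log2 fold change of -0.52 and the E protein Tcf3 one of -0.43, both under the fold threshold. Cbfb, the partner of Runx1, was upregulated on day 0 (1.095, adjusted p = 0.00144, limma), with 1365 and 1369 in WT against 2926 and 2917 in CTCF-K20R mESCs. On day 4 its value was 0.04, and its interaction was -1.05 (adjusted p = 0.00127, limma). Tcf12, another E protein, had an interaction of -1.12 (adjusted p = 0.0041, limma).

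The largest shift among the lists on day 4 was that of early mesoderm regulators, a group that the study itself singled out on these libraries, so its direction is not independent evidence. Of 10 tested, 9 were downregulated and 1 was not called, with a median of -4.44. Mesp1, the factor of the first mesoderm of heart and vessels, had a log2 fold change of -9.32 (adjusted p = 0.000197, limma), and the receptor Pdgfra one of -6.74 (adjusted p = 0.000249, limma). Beside these values, Kdr, Flt1 and Etv2 had -6.01, -3.03 and -2.05.

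**Figure D4:**
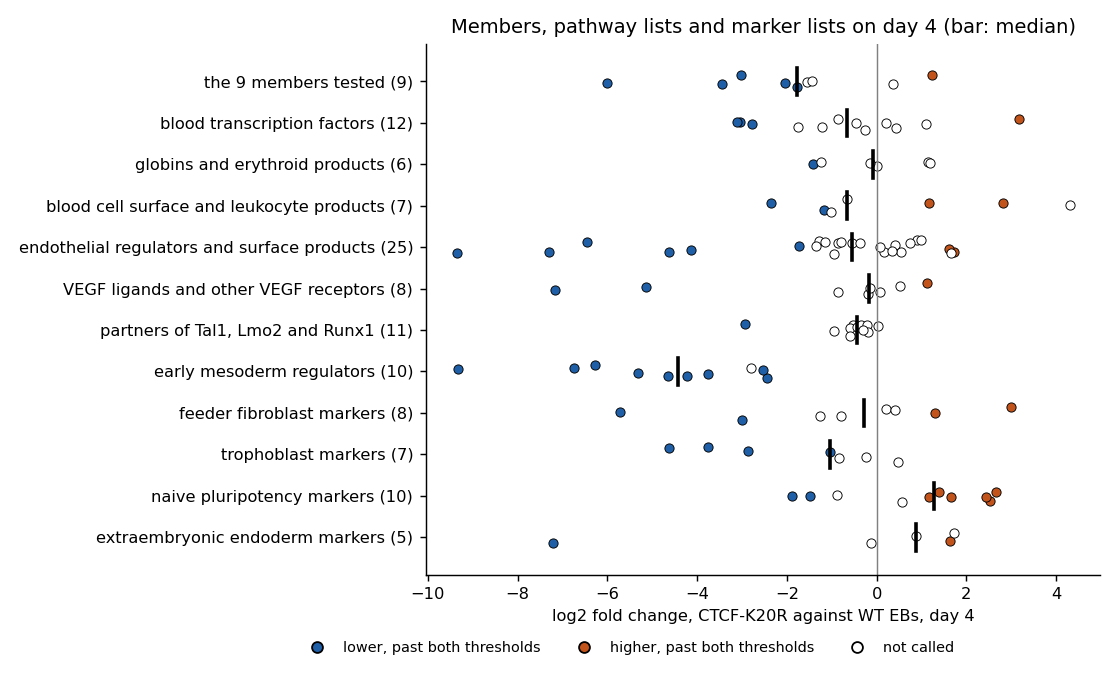
Log2 fold change of CTCF-K20R against WT EBs on day 4 for the 9 genes tested (top row), pathway lists and marker lists of other cell types, with the number of genes tested in brackets. Each point is a gene, filled points passed both thresholds, and black bars are medians, which run from -4.44 for early mesoderm regulators to 1.28 for naive pluripotency markers.

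Markers of other cells that the cultures could hold were read beside these results. Naive pluripotency markers summed to between 3353 and 3402 in WT EBs and between 8273 and 8491 in CTCF-K20R EBs, where 6 of 10 were upregulated and 2, Klf4 and Tbx3, downregulated, with a median of 1.28. Their sums in mESCs were between 89403 and 95031, and Esrrb (2.65, adjusted p = 2.53e-05, limma) and Klf2 (2.53, adjusted p = 9.1e-05, limma) led on day 4. Pecam1, itself high in mESCs, moved in the same direction as this list, and the part of undifferentiated cells in any of these results was not tested. Feeder fibroblast markers summed to between 1799 and 1852 in WT and between 2004 and 2007 in CTCF-K20R EBs. Of 8 tested, Postn (-5.72) and Fbln2 (-3.01) were downregulated and Col3a1 (3.00) and Thy1 (1.299) upregulated. Under the filter, Lum was at or under the limit in every library, while Dcn and Lox lay higher in the mutant. Dcn was at 1.05 and 0.884 in WT and 15.4 and 14.9 in CTCF-K20R EBs. Lox was at 2.93 and 2.48 in WT and 17.8 and 12.8 in CTCF-K20R EBs. Trophoblast markers summed to between 1322 and 1346 in WT and between 284 and 320.2 in CTCF-K20R EBs, with 4 of 7 downregulated, Cdx2 (-4.63), Hand1 (-3.75), Gata3 (-2.88) and Tfap2c (-1.03). Hand1 is also in the list of early mesoderm regulators and was counted there too. Elf5 (-0.85), Krt7 (-0.24) and Ascl2 (0.47) were not called. Extraembryonic endoderm markers summed to between 1376 and 1381 in WT and between 310.2 and 377 in CTCF-K20R EBs. The lower sum lay with Gata6, at 1207 and 1205 in WT and 4.69 and 10.7 in CTCF-K20R EBs. Of 5 tested, Gata6 (-7.21) was downregulated, Amn (1.64) upregulated and 3 not called, with a median of 0.87, and Dab2 stood at 134 and 134 in WT and 262 and 229 in CTCF-K20R EBs. Of the genes not called, Cubn had a log2 fold change of 1.71 (adjusted p = 0.0823, limma) and Dab2 one of 0.87 (adjusted p = 0.0811, limma). Apob had one of -0.12 (adjusted p = 0.935, limma). Afp and Ttr, under the filter, were listed at or near 0 in WT EBs. In CTCF-K20R EBs Afp was at 5.739 and 3.302, the latter little above the limit of detection. Ttr was at 3.427 and 2.185 there, under the limit. The part of these cells in the results was not tested.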

How the data were processed

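The 8 RNA-seq libraries came from mESCs (day 0) and EBs (day 4) of WT and CTCF-K20R genotype, 2 per group. Per the labels, the authors trimmed reads with Trim Galore, quantified them with Salmon on mm10 and normalized them with DESeq2. The deposited unit is a signal, that is, normalized counts of each gene in each library. Only 41.7% to 50.5% of low values were whole multiples of 1 read (within 0.05 of a read), so no count model was used. The annotation release and use of strand are not given in the sources used here.

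Positions, overlaps and lengths came from GENCODE vM21 (GRCm38). The log2(value + 1) of each sample was fitted in R 4.3.3 by limma 3.58.1 (lmFit, eBayes with a mean-variance trend), over 15767 genes with a mean of at least 10, with Benjamini-Hochberg adjustment over all of them. Each WT pair was averaged, so 6 samples in 4 groups gave 2 residual and 3.51 prior degrees of freedom. Two-sided contrasts were the genotype difference on each day, their interaction and the change with time in CTCF-K20R. The scripts were tested on simulated data. The replicate numbers did not pair the libraries (r from -0.04 to 0.001 between deviations of groups).

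Genes named were the 10 genes, up to 2 per list with the largest called change and a mean of at least 50, the 2 nearest profiles of each gene, and Ctcf. Genes of the lists named beyond these were chosen after their values were seen. The genes and lists were chosen with earlier results of these data known. Alternatives covered pseudocounts of 0.1 and 10, filters on low values, scaling, call rules, a replicate block, the samples fitted and leaving out each library. Python 3.11.15 with pandas 2.3.3, numpy 2.4.6 and matplotlib 3.10.9 was used. Promoters came from RefSeq.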

Additional observations from a re-analysis of the deposited data

Results flagged for a closer look

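For 4 of the 9 genes tested, the genotype difference on day 4 differed from that on day 0 by a test of the difference itself (limma, Benjamini-Hochberg adjustment). The day 4 minus day 0 difference was -6.68 for Kdr, from 0.67 on day 0 to -6.01 on day 4. It was -2.91 for Flt1 (from -0.12 to -3.03) and -2.91 for Etv2 (from 0.86 to -2.05). It was 1.32 for Pecam1, from -0.09 to 1.23. The call of Kdr was lost without the second CTCF-K20R EB library (-6.27, adjusted p = 0.0527) and that of Etv2 without either CTCF-K20R EB library, while those of Flt1 and Pecam1 were kept in all alternatives run.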

How the results depend on the processing

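The day 4 calls of Kdr, Flt1 and Pecam1 were kept under all alternatives run, and no day 4 difference of the 9 genes changed sign. The number of genes downregulated on day 4 went from 5 to 3 without a filter on low values, to 3 at an adjusted p under 0.01, and to between 2 and 6 when 1 library was left out, with 2 without either CTCF-K20R EB library. The count was 7 with all 8 libraries as separate samples and with the EB libraries fitted alone. The share of all genes downregulated was 8.65% in the main fit. It was 11.3% with all 8 libraries as separate samples and 7.92% without a filter on low values. Where no share of all genes is given for a setting, the counts describe the 9 genes only and cannot be set against a background. Among the fits that left out 1 library, the count of 6 came without either CTCF-K20R mESC library, where Gata2 was called (adjusted p = 0.0257 and 0.0287, limma). Where 1 library of a group was left, it was assumed to vary like the other groups. Day 0 downregulated genes went from 0 to 1 (Lmo2) with all 8 libraries as separate samples and ranged from 0 to 1 when 1 library was left out. Interaction calls downward went from 3 to 5 with 8 separate libraries, to 5 with a pseudocount of 10, and to between 1 and 3 when 1 library was left out. In CTCF-K20R cells over time, calls downward went from 1 to 2 with quantile normalization, and calls upward from 5 to 3 with a mean of at least 50, to 3 at an adjusted p under 0.01, and to between 3 and 5 when 1 library was left out. Left out 1 at a time, libraries moved the time change of Kdr between -0.24 and 0.61 and of Gata2 between -0.70 and 0.36, the day 0 difference of Tal1 between -0.22 and 0.39 and of Fli1 between -0.29 and 0.17, and the interaction of Tal1 between -0.0335 and 0.58 and of Lmo2 between -1.54 and 0.88. In all cases of a sign change the value was not called, and the Tal1 values among them rest on day 0 levels at or under the limit of detection. These were the time change of Kdr (without the first CTCF-K20R library of either day, -0.22 for the EBs) and of Gata2 (without the second CTCF-K20R mESC library), and the day 0 difference of Tal1 (without the first CTCF-K20R mESC library) and Fli1 (0.16 with quantile normalization, and without the second CTCF-K20R mESC library). The interaction turned for Tal1 (-0.0053 with quantile normalization, and without the second CTCF-K20R mESC library) and for Lmo2 (1.35 with a pseudocount of 0.1, and without the first CTCF-K20R mESC library, 0.02 without the second CTCF-K20R EB library). The cause was not tested.

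With the replicate number of the CTCF-K20R libraries as a block, 1373 genes were downregulated and 1072 upregulated on day 4, against 1364 and 1087. Under this block Gata2 was called on day 4 (adjusted p = 0.0339, limma), Runx1 in the interaction (0.0427), and Lmo2 on day 0 (0.0352), so that the day 0 count was 1. The libraries share only a number, since deviations of same-numbered libraries correlated at 0.001 or less. With all 8 libraries as separate samples, 1778 and 1376 genes were called on day 4. Quantile normalization and rescaling moved the median of all genes on day 4 to 0.05 and -0.02.

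With 1 WT sample a day and 2 mutant libraries, the spread behind each p-value comes from the mutant alone. Tal1 and Cdh5 in mESCs were not detectable at this depth, nor was Lmo2 in 1 CTCF-K20R mESC library.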
